A study of Mus musculus with 6 samples.

Results

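The Bcl2 family of apoptosis regulators was followed through 10 genes in mouse liver after ischemia and reperfusion: Bcl2, Bcl2l1, Mcl1, Bax, Bak1, Bid, Bad, Bcl2l11, Bbc3 and Pmaip1. They were taken by gene name from a table of 54532 genes, where each name had 1 row, and all 10 were among the 13134 genes with enough reads to be tested. RNA came from the ischemic lobe of C57bl/6 mice after warm ischemia for 1 h, when the blood supply of the lobe is shut off, and reperfusion for 12 h, when it is restored. One group was wild type (libraries WT-14, WT-44, WT-77). The other lacked interferon regulatory factor 8 in hepatocytes (IRF8-cKO-71, IRF8-cKO-88, IRF8-cKO-106), so n = 3 libraries per group, and both groups had the same injury. Library values are given below in this order, WT first. No uninjured liver was analysed here. The sources used here do not give the Cre driver, the allele, or the age of the mice. The labels do not say that each library is a separate animal. The p-values therefore set group differences against the spread between these libraries, which may be technical.

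Bcl2 family proteins decide whether the outer membrane of the mitochondrion stays intact. Pro-survival proteins hold the effectors BAX and BAK in check, and BH3-only proteins, which sense damage or lost growth signals, bind the pro-survival proteins or activate the effectors. Once BAX or BAK form pores, cytochrome c escapes and caspases are activated. In liver, BCL-XL (from Bcl2l1) and MCL1 are known as the main pro-survival proteins of hepatocytes, and BID carries the signal from death receptors to mitochondria. The design compares the injured lobes of the 2 groups, and these counts measure RNA, not protein, cleavage or cell death.

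The gene counts summed to 14758237 to 16805830 reads per library. Irf8, the targeted gene, stood at 9.32, 9.50 and 10.3 CPM (read counts scaled by library size and composition) in WT and at 5.67, 6.72 and 4.17 CPM across the IRF8-cKO libraries. The groups did not overlap, but the log2 fold change of -0.81 (SE 0.33) did not pass over all genes (adjusted p = 0.174). Liver also holds Irf8 RNA of immune cells, and a deleted exon cannot be seen in a count of the whole gene. The part of either in these Irf8 values was not tested. All 10 hepatocyte markers listed were abundant enough to be tested. Across genes, WT libraries correlated with each other at 0.953 to 0.963 and IRF8-cKO libraries at 0.905 to 0.944, where the 2 pairs with IRF8-cKO-71 were the lower ones. That library also had the lowest correlations with WT (0.852 to 0.885, against 0.891 to 0.945 for the other IRF8-cKO libraries).

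The promoter stretches of Mcl1 and Bcl2l1 are shown because these were the members whose groups did not overlap. Each runs 5′ to 3′ on the gene's own strand, from 250 bases before a RefSeq start to 30 after it, in build GRCm38.p6. The Mcl1 stretch is chr3:95658471-95658750 on the plus strand, and the Bcl2l1 stretch is chr2:152831699-152831978 on the minus strand, at the start that coincides with that of the gene in the count table. The last line is part of a downstream Bcl2l1 window, chr2:152830940-152830967 on the minus strand. The RefSeq start of that window lies 1011 bases downstream of the start of the gene in the count table. Capitals mark motif matches.
Mcl1 promoter: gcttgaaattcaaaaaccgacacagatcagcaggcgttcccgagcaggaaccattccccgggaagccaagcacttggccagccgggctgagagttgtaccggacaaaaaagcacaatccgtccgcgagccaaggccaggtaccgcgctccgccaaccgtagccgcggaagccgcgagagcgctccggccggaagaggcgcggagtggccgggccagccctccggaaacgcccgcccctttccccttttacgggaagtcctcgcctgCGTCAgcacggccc
Bcl2l1 promoter: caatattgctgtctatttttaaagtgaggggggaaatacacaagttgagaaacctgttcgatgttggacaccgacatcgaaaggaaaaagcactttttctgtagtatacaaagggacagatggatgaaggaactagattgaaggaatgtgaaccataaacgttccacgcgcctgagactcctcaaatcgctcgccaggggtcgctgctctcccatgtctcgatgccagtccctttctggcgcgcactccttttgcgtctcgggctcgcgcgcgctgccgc
Bcl2l1 downstream site: tgtttgtgGGGGGTCTCCagcatacgcc

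Of the members, 9 matched RefSeq promoter windows of 300 bases, 15 windows in all, and Pmaip1 was not among them. Motifs were searched on both strands. The Mcl1 window held the core of the cyclic AMP response element, TGACG (read as CGTCA on the printed strand), which 20.8% of all 32851 windows hold. The downstream Bcl2l1 window held a match to the NF-kB motif, found in 4.51% of windows. The motifs for AP-1 (TGANTCA, 7.81% of windows), interferon regulatory factors (GAAA, any 2 bases, GAAA; 3.44%) and STAT (TTCNNNGAA, 8.30%) were in no window of any of the 9 genes. A forkhead motif (TGTTTAC, 3.65% of windows) was in the Bcl2l11 window at the start of the gene and in 1 of 3 Bbc3 windows. The starts of the Bbc3 windows lay 1190, 1868 and 2038 bases downstream of the gene start in the count table. That of the only Bak1 window lay 382 bases downstream. Bax held 1 copy of the decamer of which a p53 response element has a pair (8.36% of windows hold a copy) and a pair of E-boxes (CACGTG, 7.15%). Other matches were a C/EBP motif (TTGCNNAA, 10.8%) in Bid, TGACG in Bcl2 and Bbc3, and NF-kB and E-box motifs in Bbc3. The full cyclic AMP response element (TGACGTCA, 1.79%), which contains TGACG, and TATAAA (13.6%) were not in these windows. A match describes letters and is not evidence of binding.

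Mcl1 and Bcl2l1, the most abundant members, were at lower levels in every IRF8-cKO library than in any WT library, and neither difference passed over all genes. The other 8 members overlapped between groups. With edgeR's quasi-likelihood test, 0 of 10 members passed an adjusted p of 0.05, against 1.39% of the 13134 genes tested (0.937% lower, 0.449% higher). Bcl2l1 and Mcl1 had an unadjusted p under 0.05, a level reached by 24.1% of all genes, and these were also the 2 of 10 without overlap, both lower, where 28.9% of all genes had none (14.5% lower, 14.4% higher). The members' shares are near the background. The median log2 fold change of the members was -0.50 beside 0.03 over all genes, and 6 of 10 were negative beside 48.5% of all genes.

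**Figure D1:**
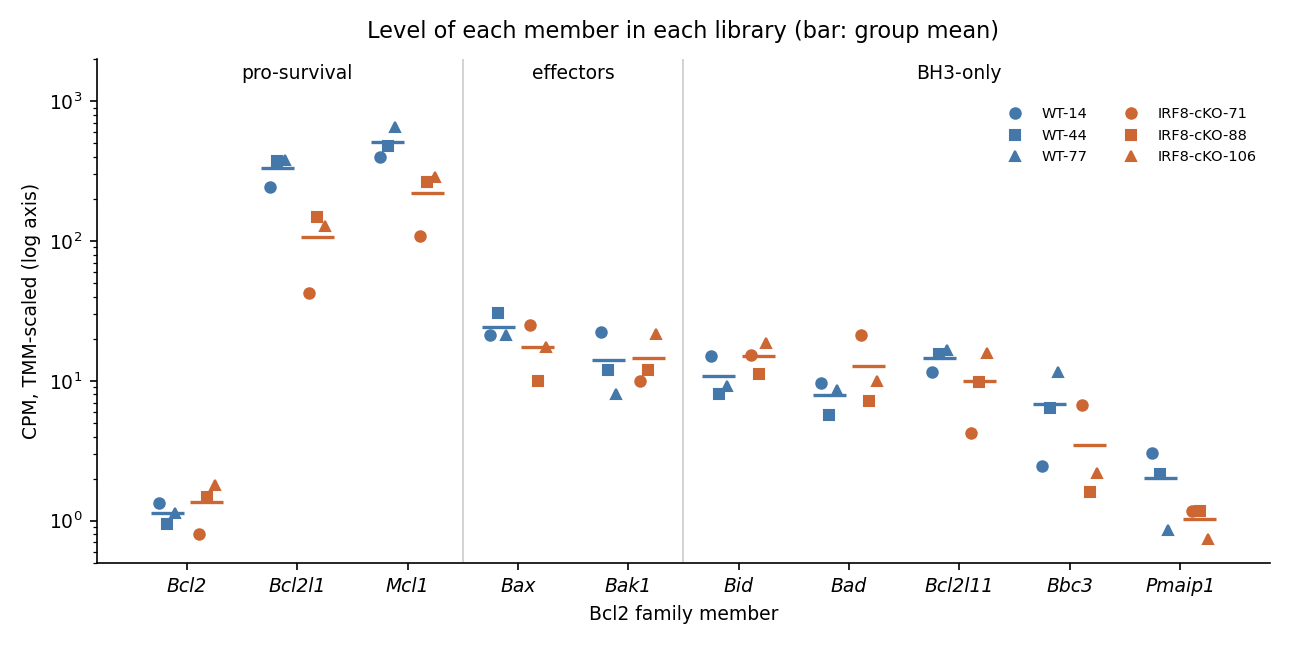
Level of each of the 10 members in each library, in CPM on a log axis. Points are libraries (blue WT, orange IRF8-cKO) and bars are group means. The colours separate for Bcl2l1 (WT 244.5 CPM or more, IRF8-cKO 149 CPM or less) and Mcl1 (WT 396 or more, IRF8-cKO 285 or less) and mix for the other members.

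Mcl1 (ENSMUSG00000038612, chromosome 3, 95658788 to 95663176, plus strand, mm10) encodes a short-lived pro-survival protein. It stood at 396, 479 and 658 CPM across the WT libraries and at 109, 263 and 285 CPM across the IRF8-cKO libraries. The highest IRF8-cKO library was below the lowest WT library, and IRF8-cKO-71 was far below the other libraries of its group. The group means were 511 ± 133 and 219 ± 95.7 CPM (SD, n = 3 each). The fitted log2 fold change was -1.22 (SE 0.40, 95% interval -2.12 to -0.33, adjusted p = 0.117), which did not pass. Permuting the libraries gave an exact two-sided p = 0.1 for log2 CPM, the smallest that 3 against 3 libraries allow. Without IRF8-cKO-71 the log2 fold change was -0.89.

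Bcl2l1 (ENSMUSG00000007659, chromosome 2, 152780668 to 152831728, minus strand) encodes BCL-XL and, by splicing, a shorter form that promotes death. A gene-level count does not separate them. It stood at 244.5, 373 and 379 CPM across the WT libraries and at 42.7, 149 and 128 CPM across the IRF8-cKO libraries. Again the groups were apart and IRF8-cKO-71 was lowest. The means were 332 ± 76.0 and 107 ± 56.5 CPM (SD, n = 3 each), a difference of 3.11-fold. Its log2 fold change of -1.64 (SE 0.45, 95% interval -2.63 to -0.64) had the lowest p of the 10 members and did not pass (adjusted p = 0.0855; exact permutation p = 0.1). It was -1.25 without IRF8-cKO-71, and without IRF8-cKO-88 it was -1.95 and passed (adjusted p = 0.0356), where 8.83% of all genes passed. Bcl2l1 and Mcl1 both passed in DESeq2 (adjusted p = 0.00665 and 0.0325, with 11.3% of genes called) and in edgeR without a low-count filter (adjusted p = 3.17e-04 and 0.0170, with 7.15% called). Neither passed in limma-voom, which called 0 of 10 members and 0.845% of genes.

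Bcl2 (ENSMUSG00000057329, chromosome 1, 106538178 to 106714274, minus strand), the founding pro-survival gene, was at the edge of detection, with 11 to 39 reads per library. The lowest count, 11 reads in WT-44, has an exact 95% Poisson interval of 5.49 to 19.7 reads, which covers counting error only. Bcl2 stood at 1.35, 0.95 and 1.13 CPM across the WT libraries and at 0.802, 1.48 and 1.81 CPM across the IRF8-cKO libraries. IRF8-cKO-71 was the lowest library and the other IRF8-cKO libraries the highest. On the log2 scale the fold change was 0.25 (SE 0.51, 95% interval -0.88 to 1.38, adjusted p = 0.788), so a 2-fold higher level lies within the interval.

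Bax (ENSMUSG00000003873, chromosome 7, 45461697 to 45466898, minus strand) encodes the effector that moves from cytosol to mitochondria. It stood at 21.3, 30.4 and 21.3 CPM across the WT libraries and at 25.2, 9.99 and 17.4 CPM across the IRF8-cKO libraries. The groups overlapped, with IRF8-cKO-71 inside the WT range. Its log2 fold change was -0.47 (SE 0.35, 95% interval -1.26 to 0.31, adjusted p = 0.424). Bax shares 915 bases with Gm45808, a gene on the same strand with 0 reads in every library. How shared reads were counted is not given, so the Bax count, its level per length and its ratios are uncertain.

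Bak1 (ENSMUSG00000057789, chromosome 17, 27019810 to 27029009, minus strand) encodes the effector that resides on the mitochondrial membrane. It stood at 22.2, 11.9 and 8.11 CPM across the WT libraries and at 10.1, 12.0 and 21.7 CPM across the IRF8-cKO libraries. Each group had 1 high library, and the ranges were nearly the same. Its log2 fold change of 0.05 (SE 0.43, 95% interval -0.91 to 1.01) turned negative without WT-44, WT-77 or IRF8-cKO-106 (-0.06, -0.23 and -0.34). Bak1 lies wholly within Ggnbp1, a gene on the opposite strand with 54 to 174 reads, and the strand setting of the counting is not given, so some reads may be shared.

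Bid (ENSMUSG00000004446, chromosome 6, 120891930 to 120916853, minus strand) is the BH3-only gene of the death receptor route. It stood at 15.1, 8.03 and 9.17 CPM across the WT libraries and at 15.4, 11.2 and 18.7 CPM across the IRF8-cKO libraries. Only WT-14 reached the IRF8-cKO range. The fit gave a log2 fold change of 0.48 (SE 0.35, 95% interval -0.29 to 1.25, adjusted p = 0.408). Bid shares 913 bases with Bcl2l13, a family relative on the opposite strand, so its count is uncertain too.

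Bad (ENSMUSG00000024959, chromosome 19, 6941861 to 6951898, plus strand) encodes a BH3-only protein that survival kinases inactivate by phosphorylation. It stood at 9.62, 5.70 and 8.64 CPM across the WT libraries and at 21.3, 7.16 and 10.01 CPM across the IRF8-cKO libraries. IRF8-cKO-71, the library with the lowest Mcl1 and Bcl2l1, had the highest Bad. Its fitted log2 fold change was 0.68 (SE 0.43, 95% interval -0.29 to 1.64, adjusted p = 0.352), and 0.11 without that library. Bad shares 590 bases with Gpr137 on the opposite strand.

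Bcl2l11 (ENSMUSG00000027381, chromosome 2, 128126038 to 128162547, plus strand) encodes BIM, which binds all pro-survival proteins. It stood at 11.5, 15.5 and 16.5 CPM across the WT libraries and at 4.25, 9.87 and 15.8 CPM across the IRF8-cKO libraries. IRF8-cKO-106 lay within the WT range and IRF8-cKO-71 well below it. The resulting log2 fold change was -0.53 (SE 0.44, 95% interval -1.51 to 0.44, adjusted p = 0.472).

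Bbc3 (ENSMUSG00000002083, chromosome 7, 16308393 to 16318205, plus strand) encodes PUMA, a BH3-only protein induced by p53. It stood at 2.45, 6.39 and 11.6 CPM across the WT libraries and at 6.72, 1.604 and 2.18 CPM across the IRF8-cKO libraries. The spread within each group was wide, and IRF8-cKO-71 was above WT-14 and WT-44. Fitted over 6 libraries, the log2 fold change was -0.96 (SE 0.66, 95% interval -2.44 to 0.52, adjusted p = 0.391). It rested on single libraries more than that of any other member, at -1.82 without IRF8-cKO-71 and -0.34 without WT-77.

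Pmaip1 (ENSMUSG00000024521, chromosome 18, 66458604 to 66465550, plus strand) encodes NOXA, a BH3-only protein that binds MCL1. It was covered by 50, 25 and 13 reads across the WT libraries and by 19, 19 and 16 reads across the IRF8-cKO libraries, which is 3.06, 2.16 and 0.864 CPM and 1.17, 1.17 and 0.741 CPM. WT-77 lay among the IRF8-cKO libraries. As a log2 fold change this was -0.98 (SE 0.56, 95% interval -2.24 to 0.27, adjusted p = 0.306).

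**Figure D2:**
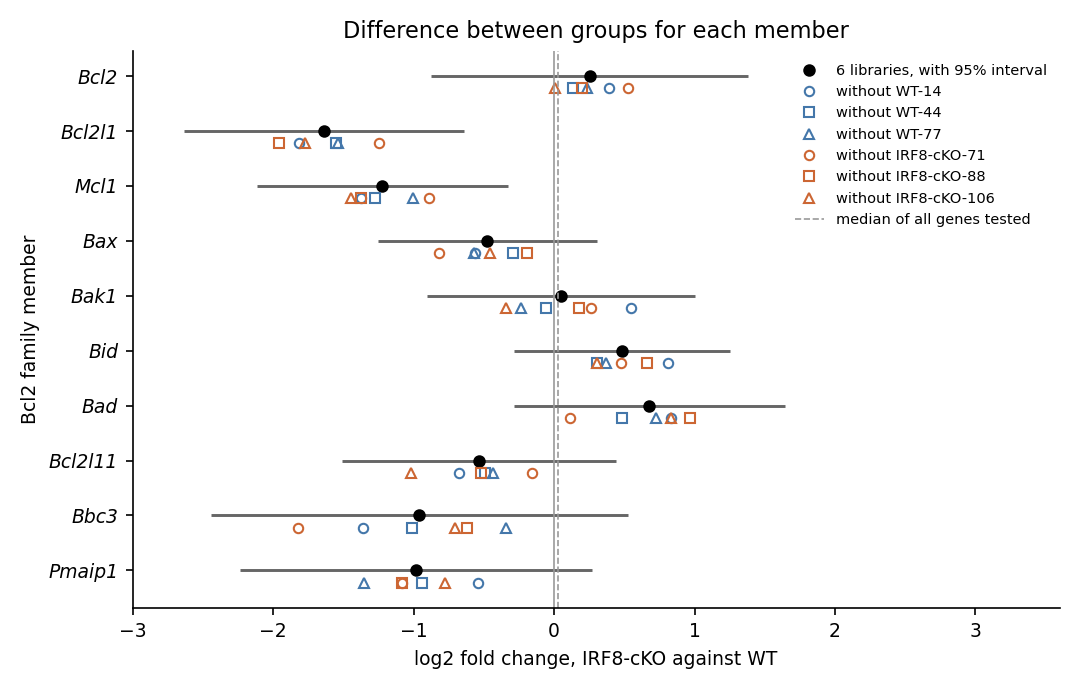
Log2 fold change of each member, IRF8-cKO against WT. Black points with bars are the fit on 6 libraries with its 95% interval, open symbols leave out 1 library each, and the dashed line is the median of all genes tested (0.03). The intervals of Bcl2l1 and Mcl1 lie below 0 and those of the other 8 members span it.

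Genes of different length can be compared only per length, so levels were also expressed as CPM per kb of gene length. Mcl1 had the highest mean over the 6 libraries (106.8 CPM per kb, above 96.6% of tested genes), followed by Bcl2l1 (47.9, above 93.2%) and Bax (13.3, above 80.8%). Bak1, Bad and Bid followed at 5.96, 5.18 and 3.64 CPM per kb. Below them stood Bbc3 (2.42), Bcl2l11 (1.53), Pmaip1 (0.578) and Bcl2 (0.137, above 2.0% of tested genes). Over the 6 libraries the ranges of all neighbours in this order overlapped, except that Pmaip1 stayed above Bcl2. Mcl1 exceeded Bcl2l1 in each of the 6 libraries, by 1.73 to 3.43 times per kb.

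The 10 members together summed to 205, 257 and 307 CPM per kb across the WT libraries and to 80.55, 130 and 145 CPM per kb across the IRF8-cKO libraries. Mcl1 made up 58.0 ± 4.22% of this sum in WT and 52.1 ± 10.8% in IRF8-cKO, and Bcl2l1 28.2 ± 3.04% and 18.6 ± 6.76% (SD, n = 3 each). The pro-survival genes together held 82.7%, 86.3% and 89.7% across the WT libraries and 51.3%, 84.3% and 76.85% across the IRF8-cKO libraries. IRF8-cKO-88 thus lay within the WT range, while IRF8-cKO-106 and, further off, IRF8-cKO-71 lay below it. Effector genes held 5.51% to 11.1% in WT and 8.70% to 25.0% in IRF8-cKO, and BH3-only genes 4.22% to 6.25% and 7.03% to 23.7%. Summed BH3-only levels were 10.8 to 14.7 CPM per kb in WT and 9.14 to 19.1 in IRF8-cKO, and effector levels 16.9 to 24.2 and 11.3 to 20.1, so the levels of both classes overlapped between groups. These sums are described without a test.

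**Figure D3:**
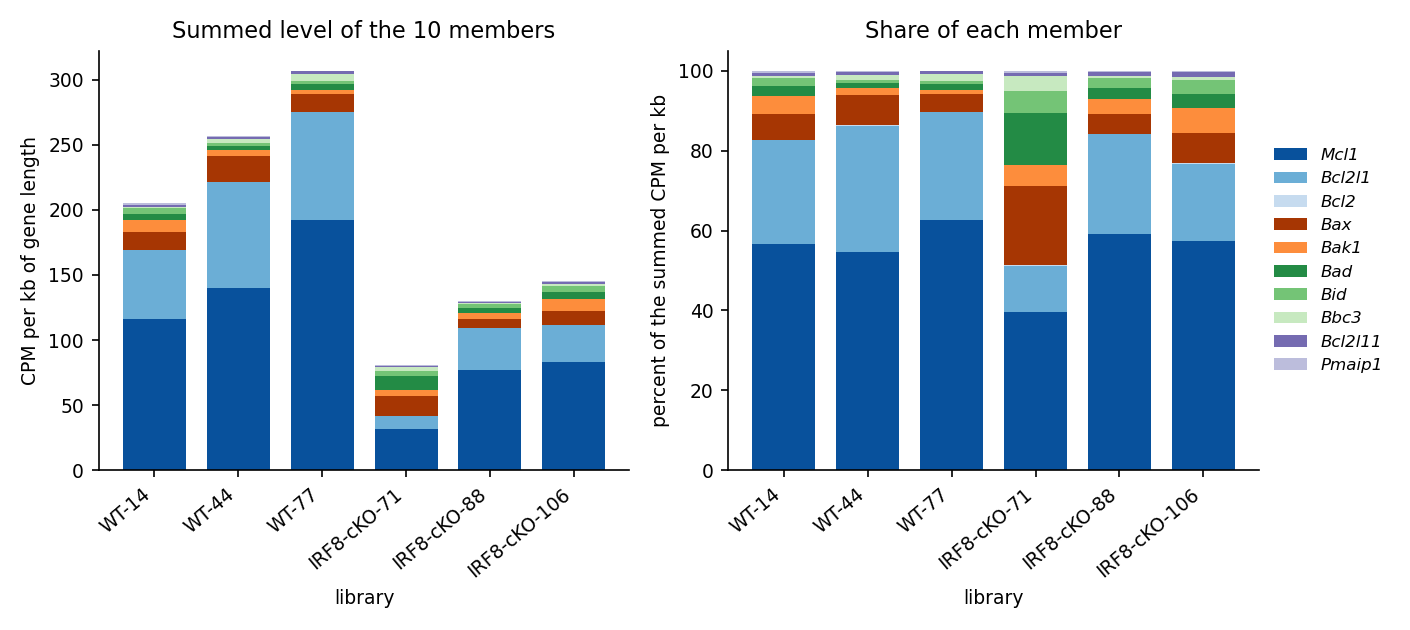
Left, summed level of the 10 members in each library in CPM per kb of gene length. Right, the percent that each member makes up of that sum. Mcl1 and Bcl2l1 fill most of each bar, except that in IRF8-cKO-71 the pro-survival genes together make up 51.3%.

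The ratio of Bcl2l1 to Bax per kb was 3.94, 4.22 and 6.11 across the WT libraries and 0.583, 5.13 and 2.54 across the IRF8-cKO libraries. IRF8-cKO-71 was the single library with less Bcl2l1 than Bax. The ratio of Mcl1 to Bak1 was 12.5, 28.3 and 57.1 in the WT libraries and 7.65, 15.5 and 9.23 in the IRF8-cKO libraries, with WT-14 inside the IRF8-cKO range. The ratio of Bax to Bcl2 was 91.9, 186 and 110 against 182, 39.2 and 55.9 in the same order, and rests on the few Bcl2 reads.

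Several cell type markers differed along with Mcl1 and Bcl2l1. In bulk tissue, fewer cells of a type and less RNA per cell cannot be told apart. Beside the markers without overlap below, 28.9% of all genes tested had none (14.5% lower, 14.4% higher). The hepatocyte and endothelial counts were near that share. Neutrophil markers summed to 204 to 270 CPM in WT and 26.2 to 65.3 CPM in IRF8-cKO, with 5 of 10 tested markers lower over all genes, 0 higher and Ly6g and Camp too low to test (0 to 7 and 0 to 26 reads per library). Cholangiocyte markers summed to 457 to 937 CPM and 129 to 250 CPM (0 of 6 passing), and blood transcripts to 232 to 333 CPM and 105 to 157.5 CPM (1 of 8 lower). Spp1 gave most of each cholangiocyte sum (408 to 855 CPM in WT, 116 to 209 CPM in IRF8-cKO). All 6 tested cholangiocyte markers were lower without overlap. Alb gave most of each hepatocyte sum (61800 to 88708 CPM in WT, 46924 to 58879 CPM in IRF8-cKO). Alb and Ttr were lower in every IRF8-cKO library than in any WT library, and Apob was higher. Summed hepatocyte markers overlapped (84100 to 129000 against 71530 to 87510 CPM, 0 of 10 passing, with 2 markers lower and 1 higher without overlap). So did the monocyte and macrophage sum (525 to 1112 against 160 to 973 CPM, 0 of 10 passing), in which Cd14 ranged from 42.9 to 969 CPM over the 6 libraries. Within that list Ly6c2, Cd68, Itgam and Plac8 were at lower levels in every IRF8-cKO library than in any WT library, and Adgre1 at higher levels. Summed Kupffer cell markers overlapped as well, at 172 to 214 against 169 to 454 CPM (0 of 8 passing). C6 gave 102 to 163 CPM of the WT sums, all 8 log2 fold changes were positive, and Vsig4, Cd5l and Marco were higher in every IRF8-cKO library than in any WT library. Sums also overlapped for endothelial markers (169 to 253 against 160 to 195 CPM, 0 of 8 passing, with 2 lower without overlap) and stellate cell markers (229 to 348 against 190 to 327 CPM, 0 of 8). The B cell list summed to 6.64 to 17.1 against 3.15 to 6.29 CPM, without overlap. Most of that sum was Ighm, the 1 marker tested, at 185, 148 and 78 reads in WT and 33, 74 and 97 reads in IRF8-cKO (log2 fold change -1.40, adjusted p = 0.12), and the other 6 markers had 0 to 14 reads per library. T and NK markers summed to 3.13 to 5.18 against 4.36 to 6.78 CPM (0 of 3). The part of these cells in the Mcl1 and Bcl2l1 values was not tested.

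**Figure D4:**
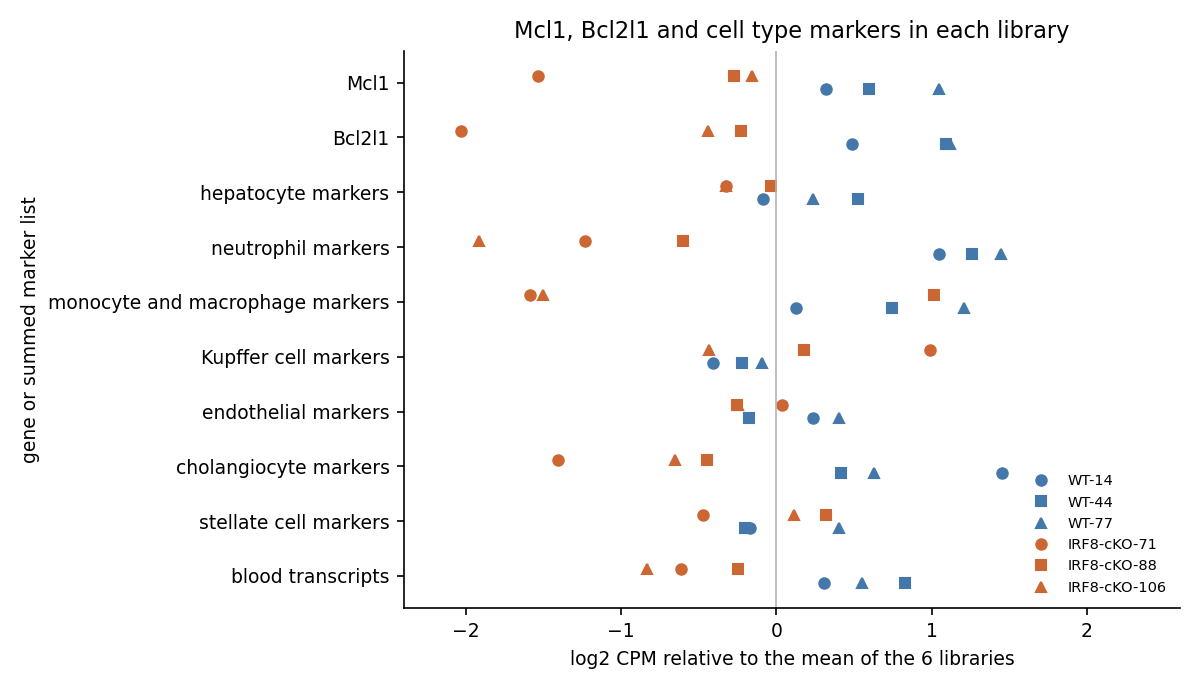
Mcl1, Bcl2l1 and summed marker lists in each library, as log2 CPM relative to the mean of the 6 libraries (blue WT, orange IRF8-cKO). Neutrophil, cholangiocyte and blood lists separate by group, as Mcl1 and Bcl2l1 do, and the sums of the other lists plotted overlap.

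Related genes of the pathway were taken from 5 lists of 71 genes in all, of which 64 could be tested. Over all genes 1 of the 64 was lower in IRF8-cKO, 0 were higher and 63 did not pass, beside 1.39% of all genes, and their median log2 fold change was 0.04.

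Of 15 other Bcl2 family genes 10 were tested, 0 passed and the median was 0.08. Bcl2l14 was at 62, 63 and 79 reads across the WT libraries and at 2, 33 and 40 reads across the IRF8-cKO libraries (adjusted p = 0.16, log2 fold change -1.84 with SE 0.71). Bcl2l12 overlapped between groups (log2 fold change 1.07 with SE 0.51, adjusted p = 0.227). Bcl2l10, Hrk and Bcl2l15 had 0 to 2 reads per library. Bcl2a1a and Bcl2a1d, near-identical copies of a pro-survival gene of blood cells, had 3 to 15 reads, and reads may be split between the copies.

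Downstream of the mitochondrion, 0 of 15 genes of the apoptosome, the caspases and their inhibitors passed, with a median of -0.32. Dffa, encoding the inhibitor and chaperone of the caspase-activated DNase, stood at 4.24 ± 1.51 and 13.0 ± 4.36 CPM in WT and IRF8-cKO (SD, n = 3 each), without overlap between groups (adjusted p = 0.0675, log2 fold change 1.61 with SE 0.40).

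In the death receptor arm 0 of 9 tested genes passed (median 0.06). Casp8, whose protein cleaves BID, stood at 168 ± 49.0 CPM in WT against 74.2 ± 29.2 CPM in the IRF8-cKO group (adjusted p = 0.0971, log2 fold change -1.18 with SE 0.35). Its adaptor gene Fadd overlapped between groups, at 2.87 ± 1.01 and 6.82 ± 3.40 CPM (adjusted p = 0.154).

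Among mitochondrial partners of the family 0 of 12 passed (median 0.36). Mfn2, a mitochondrial fusion gene, stood at 31.2 ± 2.66 and 66.3 ± 20.4 CPM in WT and IRF8-cKO (adjusted p = 0.0855, log2 fold change 1.09 with SE 0.30). For Hk2, a hexokinase that docks on mitochondria, the value was -2.08 (SE 0.57, adjusted p = 0.0855). Without IRF8-cKO-88, where 8.83% of all genes passed, both Hk2 (-2.75, adjusted p = 0.0179) and Mfn2 (1.32, adjusted p = 0.0216) passed. Neither passed with any other library left out, and Hk2 had an adjusted p of 0.291 without WT-77. Both also passed in DESeq2 (adjusted p = 0.0064 for Hk2 and 0.0223 for Mfn2), which called 11.3% of genes. In edgeR without a low-count filter, which called 7.15%, the adjusted p was 0.00373 for Hk2 and 0.0140 for Mfn2. Neither passed in limma-voom (adjusted p = 0.0809 and 0.0984).

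Of 18 tested regulators of the members, 1 was lower, 0 were higher and 17 did not pass (median 0.22). Pim3, encoding a survival kinase that phosphorylates BAD, fell from 257, 470 and 655 CPM across the WT libraries to 99.3, 157 and 94.5 CPM across the IRF8-cKO libraries. In the fit, the log2 fold change was -1.98 (SE 0.40, adjusted p = 0.0482). The Pim3 call was near the threshold and did not hold without WT-44, WT-77, IRF8-cKO-71 or IRF8-cKO-106 (adjusted p 0.191, 0.201, 0.0657 and 0.115), nor with library totals, limma-voom, a non-robust fit or a gene length correction (adjusted p = 0.0549, 0.0514, 0.0523 and 0.0679). Its relative Pim1 just missed the threshold (-1.80, SE 0.39, adjusted p = 0.0531). Usp9x, which encodes a deubiquitinase that stabilises MCL1, stood at 44.3 ± 8.75 CPM in WT against 90.7 ± 26.5 CPM in the IRF8-cKO group (adjusted p = 0.0960, log2 fold change 1.03 with SE 0.31), without overlap between groups. Across genes, log2 fold change tended to rise with gene length (Spearman 0.196). With the gene length correction Usp9x was at 0.82 (edgeR adjusted p = 0.124). Pim1 and Usp9x passed in DESeq2 and in edgeR without a low-count filter, as Dffa and Casp8 did. These settings called 11.3% and 7.15% of genes.

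**Figure D5:**
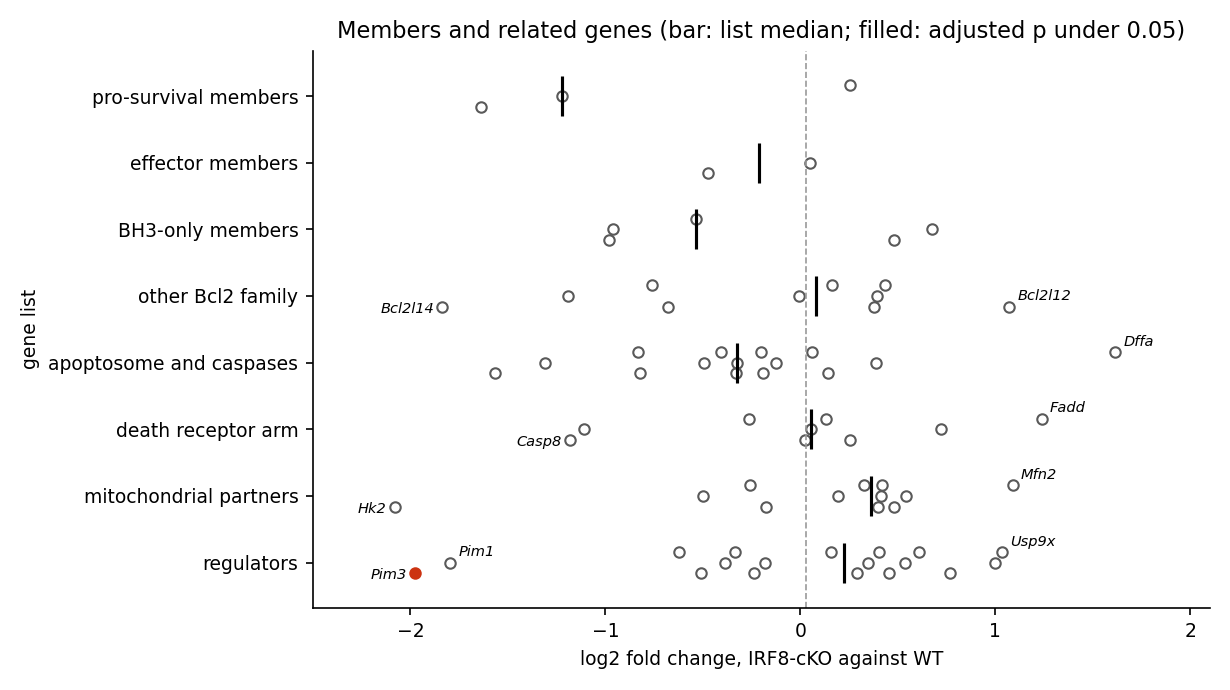
Log2 fold change, IRF8-cKO against WT, of the members and of the 64 tested related genes by list. Bars are list medians, the dashed line is the median of all genes and a filled point has an adjusted p under 0.05. Pim3 is the single filled point.

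By the root mean square distance between log2 CPM profiles, each centred on its mean over the 6 libraries, Mcl1 and Bcl2l1 were the closest pair among the members, at 0.32 log2 units. The protein-coding genes closest to Bcl2l1 were Ggt7, Fzd8 and Sipa1l2 (distances 0.18, 0.18 and 0.24), where the median distance over all genes was 1.15. All of them had their lowest value in IRF8-cKO-71, as Bcl2l1 did, which follows from choosing them by their closeness to its profile. Ggt7 is a low gene, at 0 to 1.38 CPM. The prior count of 2 in these log2 values narrows the profile of so low a gene, and its distance depends on that setting. None of the 3 passed the test between groups, with log2 fold changes from -2.21 for Ggt7 to -1.45 for Sipa1l2.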

How the data were processed

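Bulk RNA-seq libraries of the ischemic liver lobe were made from total RNA (Trizol, NEBNext Ultra kit), per the labels' protocols. The authors deposited raw counts per gene. HISAT2 2.0.5, featureCounts 1.5.0-p3 and build mm10 are named in the submitters' processing notes. How strand and multiply mapped reads were treated, and the annotation release, are not stated there. Groups came from the titles.

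Genes with enough reads were kept by filterByExpr (minimum count 10, minimum total 15; 13134 of 24095 genes with a read). After TMM scaling, groups were tested with the robust quasi-likelihood method of edgeR 4.0.16 (R 4.3.3), two-sided and without covariates. P-values were adjusted by Benjamini-Hochberg across every gene tested, and a gene passed at 0.05. SE is the absolute log2 fold change over the square root of F, and the 95% interval uses the fit's t quantile. The biological coefficient of variation was 37.1%. The fit was tested on simulated data. Libraries of a group were not duplicates (chi-square of at least 68.7 per degree of freedom between any pair). Distances used log2 CPM with a prior count of 2. Promoter windows come from RefSeq (GRCm38.p6).

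Alternatives were other scalings, filters and tools (DESeq2 1.42.0, limma-voom from limma 3.58.1) and each library left out. A gene length correction (lowess, span 0.5) was added after the data were seen. The members, lists and rules were chosen with earlier results of these data known. Named genes were the members, Irf8, up to 4 called genes and the 2 others with lowest p per list, and the 3 nearest profiles to the member with lowest p. Some genes that this rule or the lists hold are not reported here.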

Additional observations from a re-analysis of the deposited data

How the results depend on the processing

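No paired analysis was possible because the groups share no replicate number. The count of changed members, 0 on 6 libraries, was 2 with DESeq2, 2 without a low-count filter, and 0 to 1 with 1 library left out (1 without IRF8-cKO-88). Over all genes, 182 changed (123 lower, 59 higher). This count was 82 with library totals (43 lower, 39 higher, the all-gene median shifting from 0.03 to 0.25 on the log2 scale), 1723 without a filter, 1423 with DESeq2, 111 with limma-voom, 77 with the gene length correction, and 0 to 1205 with 1 library left out (0 without WT-77, 1 without WT-44, 20 without IRF8-cKO-106, 1205 without IRF8-cKO-88). Without WT-77, 1988 genes had an unadjusted p under 0.05 in edgeR. Of the 10 members, 9 kept their direction in all 15 alternatives. These reuse the same libraries, so a kept direction is not independent evidence of a difference. Bcl2 was at 0.0084 (SE 0.62) without IRF8-cKO-106, and Bad at 0.11 (SE 0.37) without IRF8-cKO-71. Bak1 turned negative without WT-44 (-0.06), WT-77 (-0.23) or IRF8-cKO-106 (-0.34), and reached 0.55 without WT-14. Without division by gene length, the Bcl2l1 share in WT was 35.9% (28.2% per kb) and the Bax share in WT 2.70% (6.17% per kb). These 2 shares differ because each gene is divided by its own length. Why the counts of changed genes differed between settings was not tested. Depth limits Bcl2 and Pmaip1, with 11 to 50 reads per library. The 95% interval of each of the 10 members includes a 2-fold difference in at least 1 direction.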
